A study of Rattus norvegicus with 28 samples.

Results

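The 7 genes described here belong to antioxidant defence and to the Nrf2 pathway, and were followed in samples labelled as rat neural progenitor cells. They were chosen by identifier, as 7 of the 32545 genes in the count table, and their names were given together with those identifiers. The genes were Nfe2l2 (ENSRNOG00000001548), Hmox1 (ENSRNOG00000014117), Nqo1 (ENSRNOG00000012772), Gclc (ENSRNOG00000006302), Sod1 (ENSRNOG00000002115), Sod2 (ENSRNOG00000019048) and Cat (ENSRNOG00000008364). All 7 passed the filter on low counts, which left 14282 genes to test. The samples formed 7 groups of 4 libraries each. Cells were exposed to injured spinal cord and labelled 2, 3 or 4 weeks, exposed to spinal cord with no mention of injury (called uninjured here) and labelled 2, 3 or 4 weeks, or kept in culture. The labels used here give no strain, age, route of exposure or event from which the weeks run, and do not tell whether cells were separated from cord tissue. They also do not name animals or cultures as replicates, so p-values measure only the spread between these libraries, which may be technical.

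Nrf2, the protein made from Nfe2l2, is a transcription factor that the adaptor Keap1 keeps low by handing it to the ubiquitin system. Oxidants and electrophiles release it, and with small Maf proteins it then binds antioxidant response elements in DNA. Well-known targets are Hmox1, which encodes a heme-degrading enzyme, Nqo1, a quinone reductase, and Gclc, the catalytic subunit of the enzyme that limits glutathione synthesis. Superoxide is removed by Sod1 in the cytosol and by Sod2 in mitochondria, and catalase (Cat) breaks down hydrogen peroxide.

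Upstream sequences are shown for the gene of the factor itself and for Nqo1, called between injured and uninjured exposure at week 4, and Sod2, called at week 3. Gclc was also called at week 3, and its window was searched but is not printed. RefSeq promoter windows on the rat build GRCr8 were matched by symbol for 6 of the 7 genes, all but Hmox1. The 250 bases before the start given in that table were searched on both strands for 3 motifs, and matches could overlap. The core of the antioxidant response element was searched as TGACNNNGC, the GC box as GGGCGG and the CCAAT box by its own letters. Capitals mark every match. The core occurred in 10.1% of 33469 promoters of the same length, the GC box in 30.5% and the CCAAT box in 34.0%.
Nfe2l2, chr3:81029000-81029249, minus strand: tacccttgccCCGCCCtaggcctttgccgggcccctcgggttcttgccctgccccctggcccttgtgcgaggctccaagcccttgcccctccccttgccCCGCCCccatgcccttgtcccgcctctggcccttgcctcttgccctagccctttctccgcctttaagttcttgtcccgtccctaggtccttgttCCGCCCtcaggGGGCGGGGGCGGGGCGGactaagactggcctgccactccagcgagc
Nqo1, chr19:52220268-52220517, minus strand: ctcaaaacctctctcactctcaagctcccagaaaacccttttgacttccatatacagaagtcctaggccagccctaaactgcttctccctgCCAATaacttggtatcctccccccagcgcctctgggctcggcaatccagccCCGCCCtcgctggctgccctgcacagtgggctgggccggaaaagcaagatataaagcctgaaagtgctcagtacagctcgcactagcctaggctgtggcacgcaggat
Sod2, chr1:50050169-50050418, minus strand: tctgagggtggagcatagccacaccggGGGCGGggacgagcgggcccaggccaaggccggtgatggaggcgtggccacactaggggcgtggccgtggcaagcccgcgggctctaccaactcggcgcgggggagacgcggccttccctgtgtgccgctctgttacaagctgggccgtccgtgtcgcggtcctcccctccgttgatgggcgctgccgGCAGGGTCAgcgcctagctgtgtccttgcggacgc

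In these windows the element core was matched 1 time in Sod2, 35 bases before the start on the strand opposite to the printed one, and 0 times in Nfe2l2, Nqo1, Gclc, Sod1 and Cat. Nfe2l2 held 6 GC boxes, while Nqo1, Gclc, Sod1 and Sod2 held 1 each and Cat held 0. Cat held 4 CCAAT boxes, and Nqo1 and Sod1 held 1 each. A match is only a run of letters, and a missing match says only that these letters are not in this window.

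Levels are given in CPM, each gene's share of its library's counts on a common scale, with library sizes scaled by the trimmed mean of M-values (TMM). A gene was called at a Benjamini-Hochberg adjusted p under 0.05 over all genes tested with edgeR's quasi-likelihood test. SE is an approximate standard error, the absolute log2 fold change divided by the square root of that test's F statistic. Library totals ran from 2605188 to 6908508 counts in culture and at weeks 3 and 4, but from 84532 to 446331 counts at week 2, so week 2 and low depth cannot be told apart. Injured week 3 replicate 3 stood apart, with 0 counts of Gclc and 11544 genes detected, against 15292 to 15583 in the other 3 libraries of its group. Its TMM factor was 2.006, against 1.02 to 1.055 in those 3 libraries, so its CPM rest on a much larger scaling. It was left out of the fit, its zero was taken as missing, and its other values are given separately. Injured week 2 replicate 1, with 84532 counts, had 0 counts of Hmox1, Gclc, Sod1 and Sod2, where 3 counts would have been 22.3 CPM. It stayed in the fit, and week 2 results are also given without it. The labelled cell type was not checked against marker genes, because 0 of the 32545 identifiers had a symbol in the reference table. In bulk samples fewer cells of a type and less RNA per cell cannot be told apart.

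**Figure D1:**
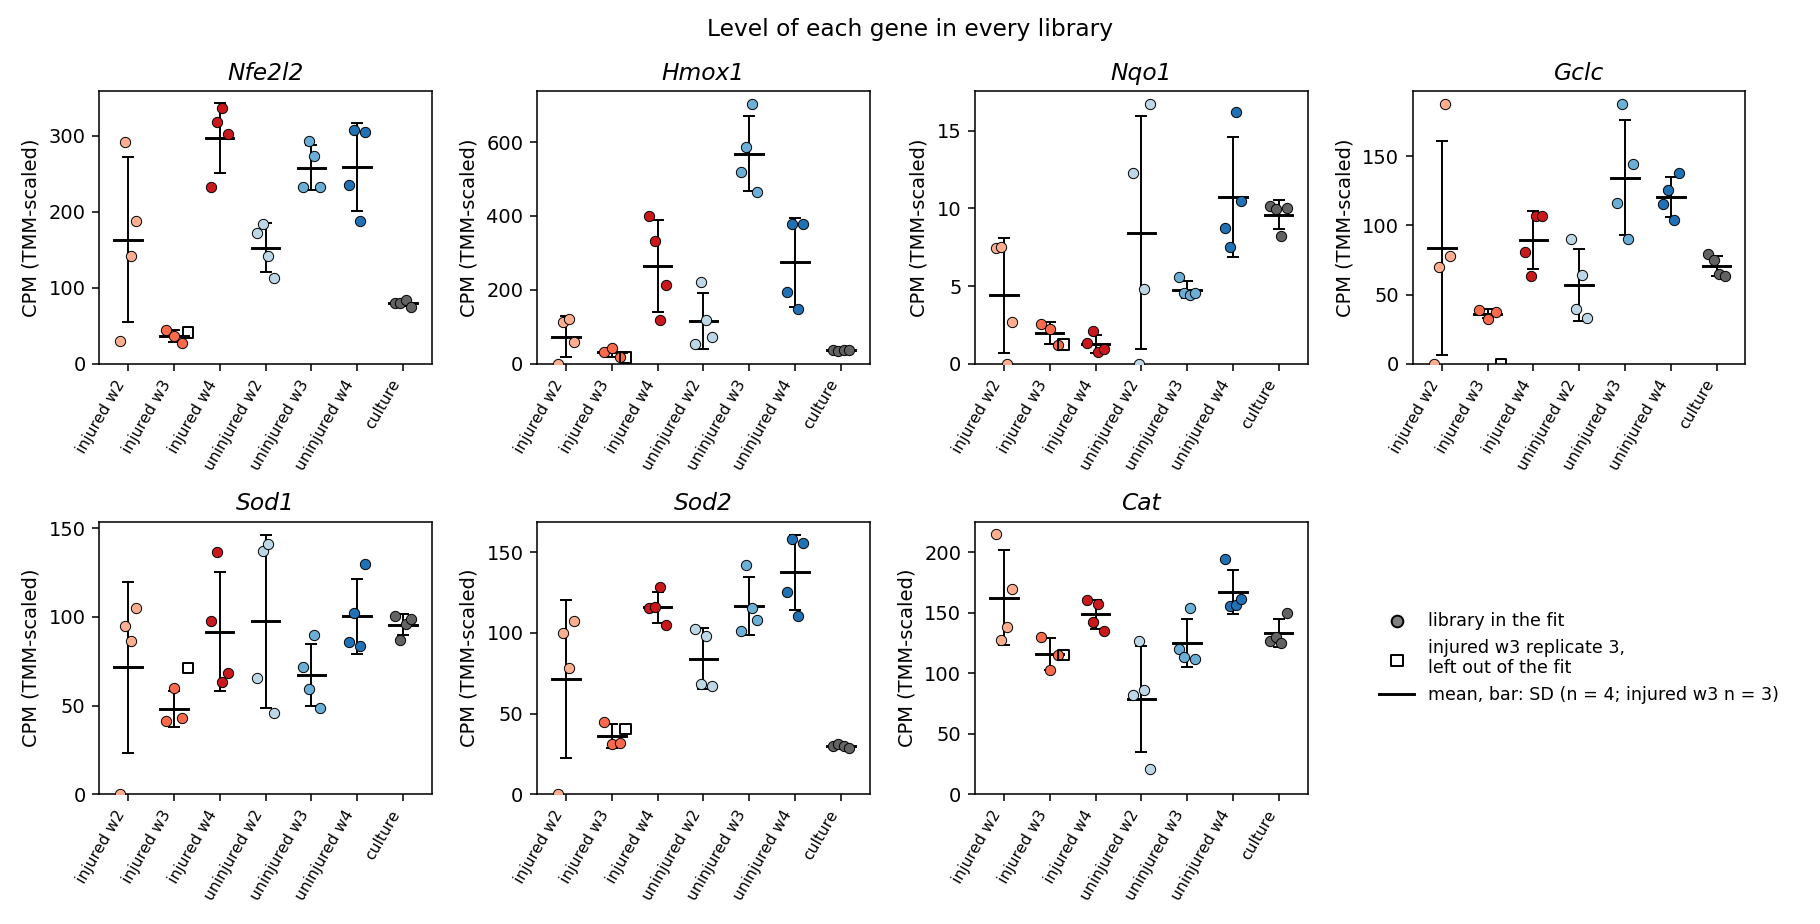
CPM of each of the 7 genes (vertical axis, TMM-scaled, from 0) in every library of the 7 groups (horizontal axis), with the group mean and SD and the left-out library as an open square. Nfe2l2, Hmox1, Gclc and Sod2 are low in injured week 3 libraries and high in uninjured week 3 libraries. Nqo1 is at most 2.53 CPM in injured week 3 libraries and at most 2.08 CPM in injured week 4 libraries.

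At week 3, exposure to injured cord was set against exposure to uninjured cord. Of the 7 genes, 4 were lower after injured exposure and 0 were higher, namely Nfe2l2, Hmox1, Gclc and Sod2. Hmox1 was 18.5-fold lower and Nfe2l2 7.07-fold lower, ahead of Gclc at 3.73-fold and Sod2 at 3.23-fold. Of all genes tested, 46.0% were called, 20.7% higher and 25.3% lower. The median log2 fold change was -1.69 over the 7 genes and 0.01 over all genes tested. With relative log expression (RLE) factors the median over all genes moved to 0.26 and that over the 7 genes to -1.44, and these 4 genes were still called. They also stayed called without any single library and in each of the 7 other fits.

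Nfe2l2, which encodes the factor, had 44.8, 36.7 and 27.8 CPM in injured week 3 libraries, against 232.8, 292.3, 273.7 and 232.8 CPM in uninjured week 3 libraries. The groups lay far apart (log2 fold change -2.82, SE 0.33, edgeR adjusted p = 1.36e-09). The left-out injured library had 41.0 CPM after its larger scaling, from 297 counts, against 92 to 159 counts in the injured libraries of the fit. Hmox1 had 31.5, 41.2 and 19.0 CPM in injured week 3 libraries, against 520.1, 585.9, 701.9 and 466.0 CPM in uninjured ones. All uninjured libraries lay far above all injured ones, the left-out one at 16.6 CPM included (log2 fold change -4.21, SE 0.49, edgeR adjusted p = 4.51e-09).

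Gclc, the glutathione synthesis gene, had 38.5, 32.5 and 37.1 CPM in injured week 3 libraries, against 116.6, 187.6, 90.0 and 144.6 CPM in uninjured week 3 libraries. The injured values lay close together and below all uninjured ones (log2 fold change -1.90, SE 0.37, edgeR adjusted p = 3.23e-05). Sod2, the mitochondrial superoxide dismutase, had 44.8, 31.4 and 32.0 CPM in injured libraries, against 101.1, 142.1, 115.3 and 108.3 CPM in uninjured ones. These groups did not overlap either, and the left-out library, at 40.4 CPM, lay within the injured range (log2 fold change -1.69, SE 0.32, edgeR adjusted p = 1.80e-05).

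The cytosolic enzyme Sod1 and catalase did not pass the test at week 3. Sod1 ran from 41.4 to 59.9 CPM in injured and from 48.8 to 89.6 CPM in uninjured libraries, which overlapped (log2 fold change -0.49, SE 0.35, edgeR adjusted p = 0.267). Cat ran from 102.9 to 130.0 CPM in injured and from 111.6 to 154.3 CPM in uninjured libraries (log2 fold change -0.11, SE 0.27, edgeR adjusted p = 0.783). The value of Cat changed sign with all 28 libraries (0.07) and with RLE factors (0.14), and was uncalled in both. Nqo1, the quinone reductase, had 2.53, 2.26 and 1.21 CPM in injured libraries, against 5.57, 4.55, 4.43 and 4.53 CPM in uninjured ones. These did not overlap but came from only 4 to 9 and 13 to 37 counts a library, and the difference missed the threshold (log2 fold change -1.24, SE 0.54, edgeR adjusted p = 0.0562). It was called lower in 4 of the 7 other fits, among them the one without the shallow week 2 libraries, at -1.27 (edgeR adjusted p = 0.00495).

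At week 4, 1 of the 7 genes was called between injured and uninjured exposure, Nqo1, which was 8.34-fold lower, and the other 6 did not pass the test. Of all genes tested, 27.3% were called, 12.1% higher and 15.2% lower. Nqo1 had 1.3, 2.08, 0.777 and 0.919 CPM in injured week 4 libraries, against 8.74, 7.52, 16.2 and 10.5 CPM in uninjured week 4 libraries. The highest injured library held 6 counts and the lowest uninjured one 27, so the groups did not overlap, although they rest on 16 and 138 counts in all (log2 fold change -3.06, SE 0.52, edgeR adjusted p = 6.61e-06). Nqo1 was called lower in each of the 7 other fits and without any single library, with adjusted p up to 0.000140 by edgeR, DESeq2 or limma.

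Nfe2l2 had 232.0, 318.0, 335.8 and 301.7 CPM in injured week 4 libraries, against 235.3, 307.9, 187.3 and 304.9 CPM in uninjured ones. These groups overlapped widely (log2 fold change 0.20, SE 0.27, edgeR adjusted p = 0.655). Hmox1 had 398.6, 331.5, 117.8 and 212.6 CPM in injured week 4 libraries, against 195.2, 378.8, 147.7 and 377.6 CPM in uninjured ones. Libraries of both groups were widely spread and overlapped (log2 fold change -0.05, SE 0.38, edgeR adjusted p = 0.940). Gclc overlapped too, with injured libraries averaging 89.5 ± 21.1 CPM and uninjured ones 120.8 ± 14.4 CPM (SD, n = 4 each) (log2 fold change -0.43, SE 0.32, edgeR adjusted p = 0.350), and was called lower when only these groups were fitted (-0.52, edgeR adjusted p = 0.0329). For Sod2, Cat and Sod1 the log2 fold changes were -0.25, -0.17 and -0.14 (edgeR adjusted p = 0.563, 0.677 and 0.801).

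**Figure D2:**
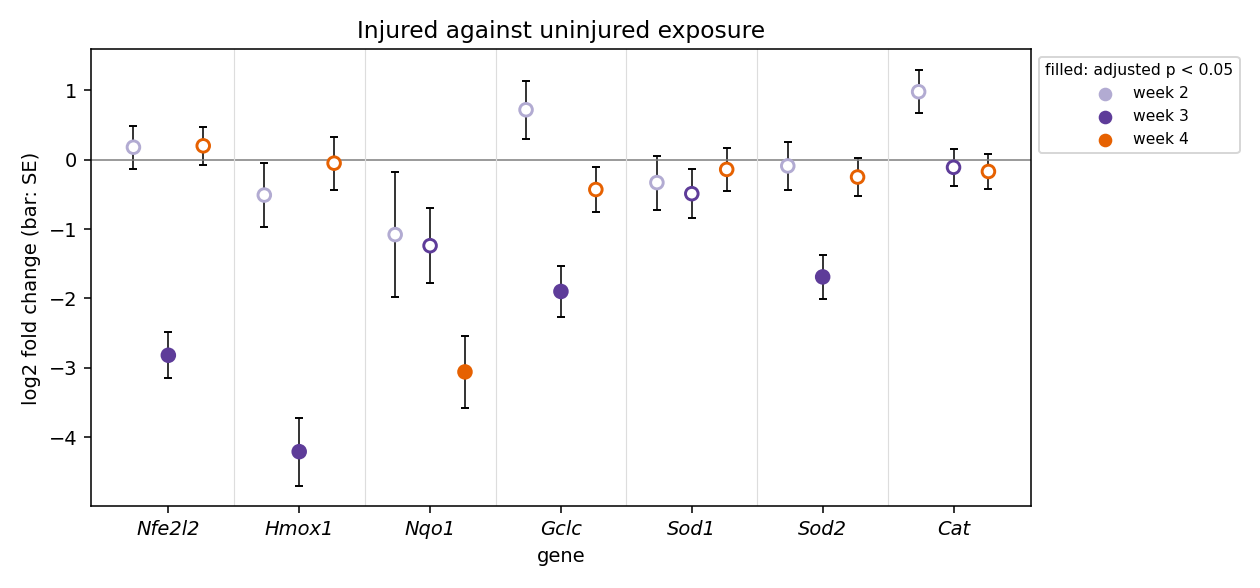
log2 fold change of injured against uninjured exposure (vertical axis, bars are approximate standard errors) for the 7 genes (horizontal axis) at weeks 2, 3 and 4, with filled points for genes called. At week 3 the points of Nfe2l2, Hmox1, Gclc and Sod2 lie between -4.21 and -1.69, and at week 4 the filled point is that of Nqo1 at -3.06.

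The difference between the injury effects of weeks 4 and 3 was itself tested, with a positive value where injured exposure stood higher relative to uninjured exposure at week 4. It was called higher for 4 of the 7 genes and lower for 0, where 18.7% were called, 11.5% higher and 7.26% lower among all genes. The log2 difference was 3.02 for Nfe2l2 and 4.16 for Hmox1 (SE 0.42 and 0.60, edgeR adjusted p = 4.02e-07 and 1.48e-06). For Gclc it was 1.47 and for Sod2 1.45 (SE 0.48 and 0.41, edgeR adjusted p = 0.0244 and 0.00897). The calls of Gclc and Sod2 were lost with all 28 libraries (edgeR adjusted p = 0.332 and 0.150), without injured week 3 replicate 2 (0.128 and 0.0788) and without injured week 3 replicate 4 (0.104 and 0.0822). Gclc depended on more choices than Sod2, since its call was lost with RLE factors (1.20, edgeR adjusted p = 0.0516) and on leaving out singly 11 of the 27 libraries, whereas that of Sod2 was lost for 2 of them. Nqo1 had a log2 difference of -1.82 (SE 0.76, edgeR adjusted p = 0.0958), which passed in 4 of the 7 other fits, among them the one without the week 2 libraries (edgeR adjusted p = 0.0113).

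Within injured exposure, week 4 was set against week 3, a comparison that shares its injured libraries with those above. Nfe2l2, Hmox1, Gclc and Sod2 rose, so 4 of the 7 genes were higher and 0 lower, where 21.6% were called, 13.8% higher and 7.77% lower among all genes. Hmox1 rose 8.64-fold (log2 fold change 3.11, SE 0.47, edgeR adjusted p = 2.29e-06) and Nfe2l2 8.14-fold (log2 fold change 3.02, SE 0.34, edgeR adjusted p = 1.63e-09). Sod2 rose 3.22-fold and Gclc 2.48-fold (edgeR adjusted p = 5.27e-05 and 0.00577). The call of Gclc was lost with all 28 libraries (edgeR adjusted p = 0.157), without injured week 3 replicate 2 (0.0707) and without injured week 3 replicate 4 (0.0588). Sod1 stood at 91.5 ± 33.6 CPM at week 4 (SD, n = 4) and 48.1 ± 10.2 CPM at week 3 (SD, n = 3), and just missed the threshold (log2 fold change 0.92, SE 0.35, edgeR adjusted p = 0.0528). It passed without the week 2 libraries (edgeR adjusted p = 0.00318), while the left-out week 3 library, at 71.2 CPM, lay within the week 4 range. Nqo1 stood at 1.27 ± 0.583 CPM at week 4 (SD, n = 4) and 2.0 ± 0.700 CPM at week 3 (SD, n = 3) (log2 fold change -0.68, SE 0.62, edgeR adjusted p = 0.520).

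Within uninjured exposure, 0 of the 7 genes were called by edgeR between weeks 4 and 3, with 2 at an unadjusted p under 0.05, where 0.525% were called, 0.441% higher and 0.0840% lower among all genes. DESeq2 called 1 of the 7 and limma with library quality weights 4, where they called 722 and 2807 among all genes. Hmox1 stood at 274.8 ± 120.9 CPM at week 4 and 568.5 ± 101.6 CPM at week 3 (SD, n = 4 each) without overlap (log2 fold change -1.05, SE 0.38, edgeR adjusted p = 0.186). Nqo1 stood at 10.7 ± 3.84 CPM at week 4 and 4.77 ± 0.537 CPM at week 3 (SD, n = 4 each), again without overlap (log2 fold change 1.14, SE 0.43, edgeR adjusted p = 0.209). The fit without the week 2 libraries called 3 of the 7, namely Hmox1 lower, Nqo1 higher and Cat higher (edgeR adjusted p = 0.0295, 0.0173 and 0.0498). Among all genes that fit called 1619, against 75 in the fit used here.

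Exposed samples were then set against cells in culture, and all of these comparisons share the 4 culture libraries. Uninjured libraries of weeks 2, 3 and 4 ran from 112.7 to 307.9 CPM for Nfe2l2, from 53.3 to 701.9 CPM for Hmox1 and from 66.8 to 158.2 CPM for Sod2. In culture Nfe2l2 had 80.1, 80.3, 84.3 and 74.2 CPM, Hmox1 36.9, 33.5, 35.8 and 37.7 CPM and Sod2 29.6, 31.1, 29.9 and 28.7 CPM. Every culture library of these 3 genes lay below every uninjured library of weeks 2, 3 and 4. How many of all genes separate in this way was not counted. Since the labels do not tell whether exposed cells were separated from cord, a difference from culture cannot be told apart from RNA of cord tissue.

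In uninjured exposure Nfe2l2, Hmox1, Gclc and Sod2 stood above culture at weeks 3 and 4. At week 3, 4 of the 7 genes were higher and 0 lower, where 49.9% were called, 26.0% higher and 23.9% lower among all genes. At week 4 the same 4 were higher and 0 lower, where 46.3% were called, 26.3% higher and 20.0% lower. Hmox1 was 15.8-fold above culture at week 3 (log2 fold change 3.98, SE 0.43, edgeR adjusted p = 5.40e-10) and 7.63-fold at week 4 (log2 fold change 2.93, SE 0.41, edgeR adjusted p = 1.81e-07). Sod2 was 3.90-fold and 4.61-fold above culture at weeks 3 and 4 (edgeR adjusted p = 1.51e-07 and 1.55e-08). Nfe2l2 was 3.23-fold and 3.25-fold above it (edgeR adjusted p = 2.15e-06 and 2.29e-06).

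Gclc averaged 134.7 ± 41.7 CPM in uninjured week 3, 120.8 ± 14.4 CPM in uninjured week 4 and 70.7 ± 7.46 CPM in culture (SD, n = 4 each), with log2 fold changes of 0.93 at week 3 and 0.77 at week 4 (SE 0.32 in both, edgeR adjusted p = 0.0139 and 0.0436). These calls depended on single libraries, with that of week 3 lost on leaving out singly 6 of the 27 and that of week 4 on leaving out 18. Both were lost with all 28 libraries (edgeR adjusted p = 0.437 and 0.552) and, among others, without injured week 3 replicate 2 (0.0831 and 0.164) or culture replicate 4 (0.0887 and 0.174). Nqo1 stood at 4.77 ± 0.537 CPM in uninjured week 3 and 9.59 ± 0.926 CPM in culture (SD, n = 4 each) without overlap, and just missed the threshold (log2 fold change -0.99, SE 0.43, edgeR adjusted p = 0.0503). Each of the 7 other fits called it lower, with log2 fold changes from -1.21 to -0.95. Sod1 had a log2 fold change of -0.50 at week 3 and 0.07 at week 4, and Cat of -0.09 and 0.33, none of them called in the fit used here. Sod1 at week 3 was called lower in 6 of the 7 other fits (adjusted p from 0.000735 by limma to 0.0471 by edgeR), and Cat at week 4 higher in 3 of them (adjusted p from 0.0208 by limma to 0.0336 by edgeR).

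In injured exposure at week 3, Nfe2l2, Nqo1 and Sod1 were lower than in culture. Thus 3 of the 7 genes were lower and 0 higher, where 19.2% were called, 9.19% higher and 10.0% lower among all genes. Nqo1 was 4.69-fold lower (log2 fold change -2.23, SE 0.52, edgeR adjusted p = 0.00125), Nfe2l2 2.19-fold lower (log2 fold change -1.13, SE 0.31, edgeR adjusted p = 0.00665) and Sod1 1.98-fold lower (log2 fold change -0.99, SE 0.35, edgeR adjusted p = 0.0390). Without injured week 3 replicate 4, which leaves 2 libraries in that group, Nfe2l2 and Sod1 were no longer called (edgeR adjusted p = 0.0535 and 0.139), and Sod1 was also lost without replicate 1 (0.157) and with all 28 libraries (0.252). Gclc stood at 36.1 ± 3.16 CPM (SD, n = 3) without overlap with culture at 70.7 ± 7.46 CPM (SD, n = 4), and just missed the threshold (log2 fold change -0.97, SE 0.36, edgeR adjusted p = 0.0504). It was called lower in 6 of the 7 other fits (edgeR, DESeq2 or limma adjusted p from 3.06e-06 to 0.0411). Hmox1 and Sod2 had log2 fold changes of -0.23 and 0.27 (SE 0.43 and 0.31, edgeR adjusted p = 0.793 and 0.626).

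At week 4, injured exposure gave 3 genes above culture, Nfe2l2, Hmox1 and Sod2, and 1 below, Nqo1. Of all genes tested, 33.6% were called, 18.1% higher and 15.5% lower. Hmox1 was 7.35-fold, Sod2 3.89-fold and Nfe2l2 3.72-fold above culture (edgeR adjusted p = 3.60e-07, 2.63e-07 and 4.12e-07). Nqo1 was 7.52-fold below it (log2 fold change -2.91, SE 0.51, edgeR adjusted p = 8.25e-06). Gclc, Sod1 and Cat had log2 fold changes of 0.34, -0.06 and 0.16, none of them called, but limma with library quality weights called Gclc higher at 0.47 (adjusted p = 0.00873).

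**Figure D3:**
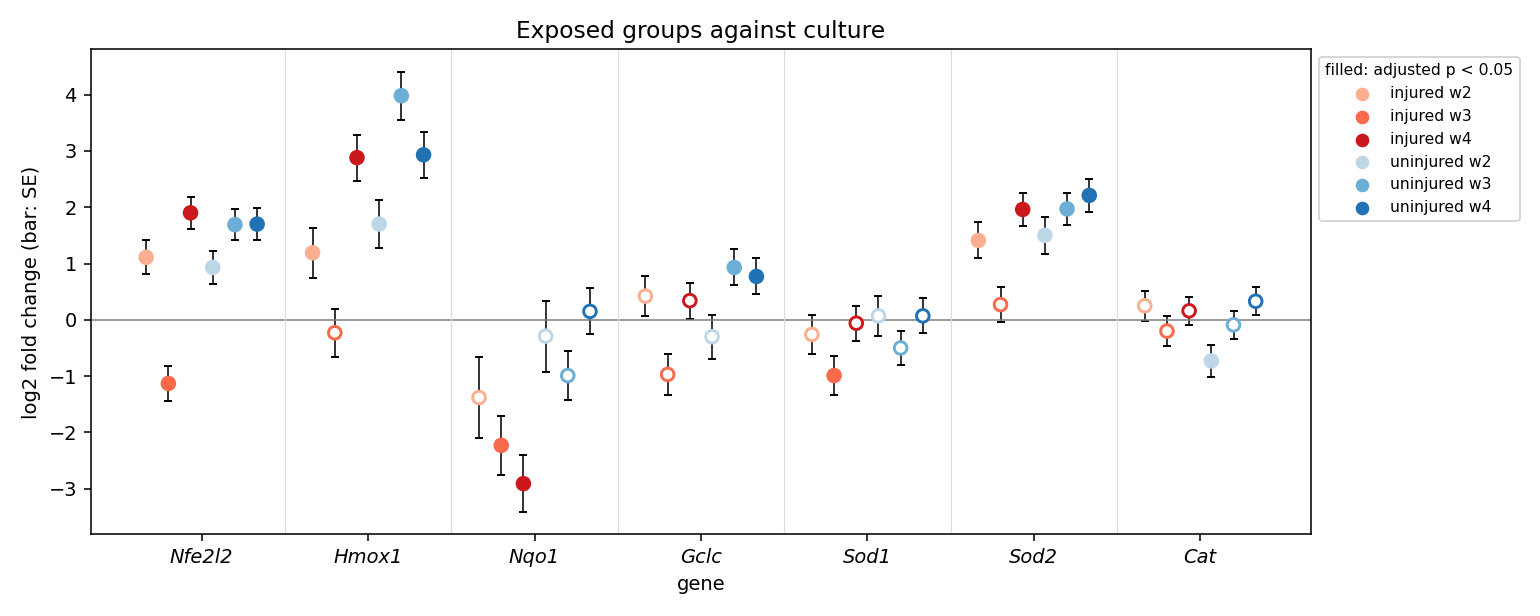
log2 fold change of each exposed group against culture (vertical axis, bars are approximate standard errors) for the 7 genes (horizontal axis), with filled points for genes called. The 3 uninjured weeks of Nfe2l2, Hmox1 and Sod2 lie above 0, injured week 3 lies at or below 0.27 for all 7 genes, and Nqo1 lies lowest in injured week 4 at -2.91.

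Week 2 values rest on few reads. Nfe2l2 had 260 counts in the 4 injured week 2 libraries together and 179 in the 4 uninjured ones, and Nqo1 had 5 and 9. Between injured and uninjured exposure at week 2, edgeR called 0 of the 7 genes, with 1 at an unadjusted p under 0.05, where 3.37% were called, 1.20% higher and 2.16% lower among all genes. That gene was Cat, at 215.5, 127.3, 138.1 and 169.4 CPM in injured libraries against 82.0, 126.4, 86.0 and 20.9 CPM in uninjured ones, which did not overlap (log2 fold change 0.98, SE 0.31, edgeR adjusted p = 0.0600). DESeq2 called Cat (adjusted p = 0.00463), and limma with library quality weights called 0. Nfe2l2 and Hmox1 had log2 fold changes of 0.18 and -0.51 (edgeR adjusted p = 0.805 and 0.572). Without injured week 2 replicate 1 these were 0.44 and -0.25, and 0 of the 7 were called.

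Against culture, Nfe2l2, Hmox1 and Sod2 were higher at week 2 in both conditions. After injured exposure 3 of the 7 genes were higher and 0 lower, where 45.0% were called, 19.3% higher and 25.7% lower among all genes. Nfe2l2 was 2.16-fold, Hmox1 2.28-fold and Sod2 2.66-fold higher (edgeR adjusted p = 0.00202, 0.0246 and 0.000380). Without injured week 2 replicate 1 their log2 fold changes were 1.52, 1.59 and 1.81, and Gclc was called too, at 0.82 (edgeR adjusted p = 0.0255). The call of Hmox1 was lost without injured week 2 replicate 3 (edgeR adjusted p = 0.145). It held in 3 of the 6 other fits and was lost on leaving out singly 3 of the 27 libraries. After uninjured exposure 3 genes were higher and 1 lower, where 42.1% were called, 20.0% higher and 22.1% lower among all genes. Nfe2l2 was 1.91-fold, Hmox1 3.24-fold and Sod2 2.83-fold higher (edgeR adjusted p = 0.0113, 0.00183 and 0.000241), and Cat was 1.66-fold lower (edgeR adjusted p = 0.0353). With limma and library quality weights the calls of Nfe2l2 and Hmox1 in both conditions and of Sod2 in the injured one were lost (adjusted p from 0.0539 to 0.554). The call of Cat was lost with RLE factors and without uninjured week 2 replicate 4 (edgeR adjusted p = 0.139 and 0.203). It held in 3 of the 6 other fits and was lost on leaving out singly 10 of the 27 libraries.

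Between weeks 3 and 2, which differ in depth as well, 4 of the 7 genes were lower at week 3 in injured exposure and 0 higher, where 44.7% were called, 24.7% higher and 20.0% lower among all genes. The log2 fold changes were -2.24 for Nfe2l2, -1.42 for Hmox1, -1.39 for Gclc and -1.14 for Sod2 (edgeR adjusted p = 7.35e-07, 0.0151, 0.00388 and 0.00668). Without injured week 2 replicate 1 they were -2.66, -1.83, -1.80 and -1.55, and Sod1 was called as well. DESeq2 also called Sod1 and Cat lower (adjusted p = 0.0489 and 0.0103). Without injured week 2 replicate 3, Hmox1 and Gclc were lost (edgeR adjusted p = 0.0856 and 0.161), and Nfe2l2 alone stayed called when only these groups were fitted. In uninjured exposure 2 of the 7 were higher at week 3 and 0 lower, where 20.3% were called, 12.2% higher and 8.12% lower among all genes. These were Hmox1 (log2 fold change 2.28, SE 0.43, edgeR adjusted p = 0.000278) and Gclc (log2 fold change 1.23, SE 0.38, edgeR adjusted p = 0.0192). The call of Gclc was lost with RLE factors and without uninjured week 2 replicate 4 (edgeR adjusted p = 0.129 and 0.130). It held in only 1 of the 6 other fits and was lost on leaving out singly 12 of the 27 libraries. The calls of both genes were lost with limma and library quality weights (adjusted p = 0.0507 and 0.0657). DESeq2 called Sod1 lower (adjusted p = 0.0262).

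Over the 7 groups, the order of mean levels differed between genes. Nfe2l2 was highest in injured week 4 at 296.9 ± 45.4 CPM, uninjured week 4 at 258.9 ± 58.3 CPM and uninjured week 3 at 257.9 ± 30.0 CPM (SD, n = 4 each), whose libraries overlapped. Below them came injured week 2 at 163.0 ± 108.7 CPM and uninjured week 2 at 152.5 ± 32.2 CPM (SD, n = 4 each). Culture, at 79.7 ± 4.13 CPM (SD, n = 4), and injured week 3, at 36.4 ± 8.49 CPM (SD, n = 3), were each apart from the group next above. Injured week 2 overlapped with both of them through its shallow replicate 1, at 29.7 CPM. Hmox1 was highest in uninjured week 3, apart from the next group, uninjured week 4, and lowest in injured week 3 at 30.6 ± 11.2 CPM (SD, n = 3), which overlapped with culture. Sod2 was lowest in culture at 29.8 ± 0.957 CPM (SD, n = 4), just below injured week 3 at 36.0 ± 7.55 CPM (SD, n = 3) without overlap. For Nqo1, Gclc, Sod1 and Cat every group overlapped with its neighbour in the order.

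The shapes of the genes over the 5 deeper groups, without week 2, were compared by the root mean square difference of group mean log2 CPM after centring each gene on its own mean. Sod1 and Cat were the closest pair of the 7, at 0.260, and also the flattest, spanning 1.05 and 0.53 log2 units between the highest and lowest group. The measure was not scaled by span, so flat genes lie close to each other whatever their shape. Sod1 ranked only 1202 of 11291 genes by likeness to Cat. Nfe2l2 was nearest to Sod2, at 0.508, then Gclc, at 0.638, and Hmox1, at 0.731. Hmox1 spanned 4.24 log2 units and Nfe2l2 3.02. Nqo1 was farthest from Hmox1, at 1.945, and from Nfe2l2, at 1.499, and nearest to Sod1, at 0.889. Other genes had closer shapes, since Sod2 ranked only 196 of 11291 genes by likeness to Nfe2l2. The nearest to Hmox1 were ENSRNOG00000002948 and ENSRNOG00000010522, at 0.098 and 0.099, and the nearest to Nqo1 were ENSRNOG00000002746 and ENSRNOG00000014230, at 0.198 and 0.200. These values describe 5 group means and carry no test.

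**Figure D4:**
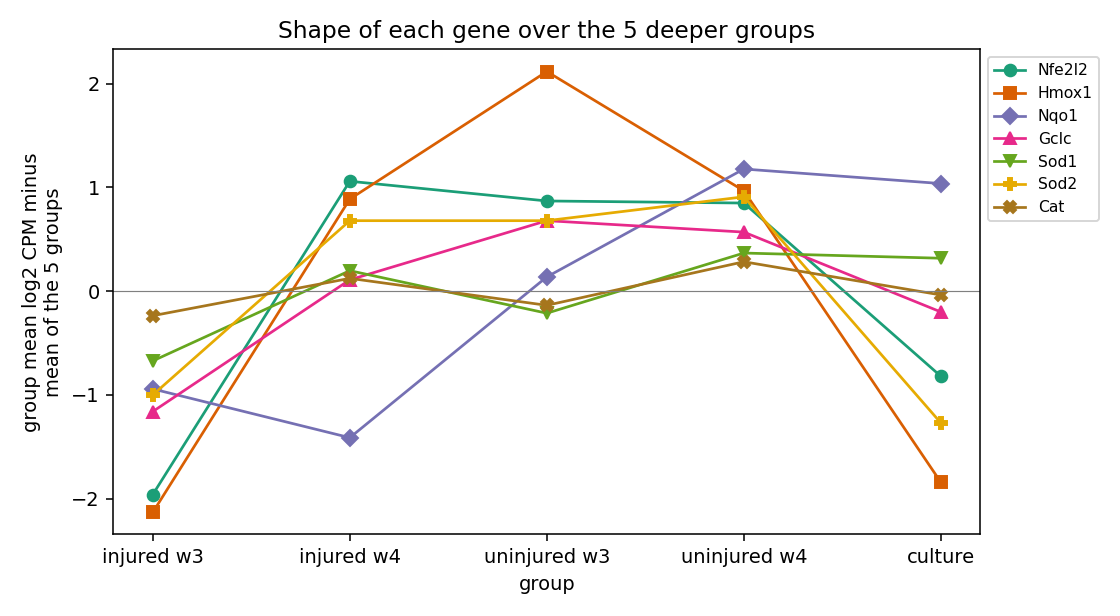
Group mean log2 CPM of each of the 7 genes minus its mean over the 5 deeper groups (vertical axis, log2 units) by group (horizontal axis), with lines only to guide the eye. Nfe2l2, Hmox1, Gclc and Sod2 are low in injured week 3 and higher in injured week 4 and both uninjured groups, Nqo1 is lowest in injured week 4, and Sod1 and Cat span 1.05 and 0.53 log2 units.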

How the data were processed

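RNA was isolated with Trizol and DNase and made into libraries with a stranded total RNA kit for very small inputs, per the labels' protocols. The authors deposited raw counts per gene for 28 libraries, with no normalization. The submitters' processing notes name the aligner STAR 2.5.1 and the counter featureCounts 1.5.1, next to StringTie 1.3.3, Trim Galore 0.4.1, FastQC 0.11.5 and Picard, but give no roles. They name the mouse build GRCm38, while the identifiers are rat, so the genome behind the counts is unsettled. Annotation, strand setting and the handling of multiply mapped reads are not stated there, and near copies or overlapping genes could change a count.

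Counts were fitted by the robust quasi-likelihood method of edgeR 4.0.16 (R 4.3.3) with TMM factors, after filterByExpr by group with a minimum count of 10. The fit had a mean for each of 7 groups over 27 libraries and 20 residual degrees of freedom. It was also run on simulated counts drawn from its own means and dispersions, which cannot show whether the calls made here are right. Injured week 3 replicate 3 was left out. The fit gave 14 comparisons, with p-values adjusted over the 14282 genes tested and not over comparisons. Library totals of 84532 to 6908508 counts limit the precision, most at week 2, and floors for 0 counts cover counting error only. The 42 pairs of libraries within groups differed by more than sampling noise (chi-square per degree of freedom 2.80 to 192).

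The 7 genes, the lists and the alternatives were chosen with earlier results of these data known. All 7 genes are named in the comparisons, and the 2 genes nearest in shape are named for Hmox1 and Nqo1. Planned lists of further pathway genes and of cell type markers were not run, since 0 of the 32545 identifiers matched a symbol. Alternatives were all 28 libraries, RLE factors, no low count filter, no week 2 libraries, only the groups compared, DESeq2 1.42.0, voom of limma 3.58.1 weighting libraries by quality, and leaving out each library in turn. Likeness was measured on log2 CPM with a prior count of 2, among genes with a mean log2 CPM of at least 2. Replicate numbers are those of accession order and pair nothing.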

Additional observations from a re-analysis of the deposited data

Results flagged for a closer look

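The test of the difference between the injury effects of weeks 4 and 3 called 4 of the 7 genes. The week 4 effect minus the week 3 effect, on the log2 scale, was 3.02 for Nfe2l2 (edgeR adjusted p = 4.02e-07), 4.16 for Hmox1 (edgeR adjusted p = 1.48e-06), 1.47 for Gclc (edgeR adjusted p = 0.0244) and 1.45 for Sod2 (edgeR adjusted p = 0.00897). The differences of Gclc and Sod2 were not called with all 28 libraries (edgeR adjusted p = 0.332 and 0.150), without injured week 3 replicate 2 (0.128 and 0.0788) or without injured week 3 replicate 4 (0.104 and 0.0822), and that of Gclc was not called with RLE factors either (edgeR adjusted p = 0.0516).

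In 3 of 42 sets, each of 1 gene in 1 group, 1 library lay apart from the rest by Dixon's ratio of its gap to the range. About 2.1 such sets arise by chance. Injured week 3, with 3 libraries in the fit, was not checked. Nqo1 was 5.57 CPM in uninjured week 3 replicate 1, above the others of its group, and 8.21 CPM in culture replicate 3, below the others. Cat was 194.2 CPM in uninjured week 4 replicate 1, above the others.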

How the results depend on the processing

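No paired analysis was possible because the labels give no replicate numbers, which here follow accession order. Of the log2 fold changes of the 7 genes, 548 kept direction and side of the threshold in another fit, 32 lost a call, 48 gained one and 19 changed sign, and 2442, 76, 61 and 67 did so without single libraries. The number of the 7 genes called moved in these fits. For injured against uninjured exposure it was 1 by DESeq2 at week 2 and 2 at week 4 with only the groups compared. For uninjured week 2 against culture it was 2 and for injured week 2 against culture 0, both by limma. For injured week 3 against week 2 it was 1 with only the groups compared and 1 by limma. For uninjured week 3 against week 2 it was 1 with all 28 libraries, 1 with RLE factors, 1 with only the groups compared and 0 by limma. For uninjured week 4 against week 3 it was 1 with no filter, 3 without week 2, 1 by DESeq2 and 4 by limma. For the injury effect of week 4 against week 3 it was 2 with all 28 libraries. Without single libraries the number ran from 0 to 1, 4 to 5 and 1 to 1 for injured against uninjured exposure at weeks 2, 3 and 4. It ran from 2 to 4, 1 to 4 and 4 to 4 for injured weeks 2, 3 and 4 against culture, and from 3 to 4, 3 to 6 and 3 to 4 for uninjured ones. It ran from 2 to 5 for injured week 3 against week 2, 3 to 5 for injured week 4 against week 3, 1 to 3 and 0 to 0 for the same weeks in uninjured exposure, and 2 to 4 for the injury effect. These numbers show only how the calls of the 7 genes depend on the fit. Shares of all genes called were not set beside them, and numbers of all genes are given below only where they moved.

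Values that changed sign, all uncalled, were these. Cat in injured against uninjured exposure at week 3 was 0.07 with all 28 libraries, 0.14 with RLE factors, 0.06 with no filter, 0.14 by DESeq2 and 0.01 by limma. Against culture, Sod1 in uninjured week 2 was 0 with no filter and -0.07 by limma. Nqo1 in uninjured week 4 was -0.01 with all 28 libraries and -0.02 with no filter. Sod1 in uninjured week 4 was -0.10 with all 28 libraries, -0.06 with RLE factors, -0.11 with no filter and -0.06 by DESeq2. Gclc in injured week 2 was -0.02 by limma, and Cat in injured week 4 was -0.04 with all 28 libraries and -0.07 with no filter. Nfe2l2 in uninjured week 4 against week 3 was 0.00 without week 2, and Sod1 in the injury effect was -0.02 with all 28 libraries and -0.05 by limma. Without single libraries, injured against uninjured exposure ran from -0.22 to 0.44 for Nfe2l2 and -0.27 to 0.17 for Sod2 at week 2, -0.21 to 0.19 for Cat at week 3, and -0.31 to 0.17 for Hmox1 and -0.39 to 0.01 for Sod1 at week 4. Uninjured exposure against culture ran from -0.81 to 0.09 for Nqo1 and -0.18 to 0.35 for Sod1 at week 2, and -0.25 to 0.23 for Nqo1 and -0.16 to 0.14 for Sod1 at week 4. Injured exposure against culture ran from -0.27 to 0.82 for Gclc and -0.43 to 0.14 for Sod1 at week 2, -0.55 to 0 for Hmox1 at week 3 and -0.07 to 0.18 for Cat at week 4. The upper end for Gclc, without injured week 2 replicate 1, kept its sign and was called (edgeR adjusted p = 0.0255). Uninjured week 4 against week 3 ran from -0.08 to 0.14 for Nfe2l2 and -0.27 to 0.04 for Gclc, and the injury effect from -0.35 to 0.03 for Cat. The cause of these changes was not tested. The number of all genes called also moved by over 1.5 times. For injured against uninjured, week 2, it was 481, against 300 with all 28 libraries, 0 with only the groups compared, 1543 by DESeq2, 0 by limma. For injured against uninjured, week 4, it was 3895, against 2396 with all 28 libraries, 6269 without week 2, 6536 by limma. For injured week 2 against culture, it was 6422, against 3714 with only the groups compared. For injured week 3 against culture, it was 2744, against 5046 without week 2, 6558 with only the groups compared, 6509 by limma. For injured week 4 against culture, it was 4801, against 8582 by limma. For injured, week 3 against week 2, it was 6386, against 1835 with only the groups compared. For injured, week 4 against week 3, it was 3078, against 5435 without week 2, 4773 by DESeq2, 5937 by limma. For uninjured, week 3 against week 2, it was 2903, against 1339 with all 28 libraries, 496 with only the groups compared, 1662 by limma. For uninjured, week 4 against week 3, it was 75, against 0 with all 28 libraries, 374 with no filter, 1619 without week 2, 435 with only the groups compared, 722 by DESeq2, 2807 by limma. For injury effect, week 4 against week 3, it was 2674, against 4629 without week 2, 4036 with only the groups compared, 4125 by DESeq2, 5210 by limma. Low counts limit Nqo1 in every group and all genes at week 2.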
